A study of Rattus norvegicus with 21 samples.

Results

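The 10 genes described here belong to the interleukin-1 axis and to the chemokines: Il1b, Il1rn, Il1r1, Il6, Ccl2, Ccl5, Cxcl1, Cxcl10, Cxcl16 and Cx3cl1. They were taken by name from the count table, which lists all 10 among 28914 gene rows. The study sequenced polyadenylated RNA of pancreatic islets, the small endocrine cell groups that hold the insulin-making beta cells, from Lewis rats. The PX group held 11 animals at 4 weeks after partial pancreatectomy, in which 90% of the pancreas is removed, and the sham group held 10 sham-operated animals at 4 weeks. For these Lewis rats the labels name no allele and no drug. The sample description gives 4 to 5 weeks without saying whether this is the age or the time after surgery, and every title also carries a mark "Inc YES" that is not explained. Libraries are named by the animal number of the title.

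Interleukin-1 beta, encoded by Il1b, is an inflammatory cytokine that macrophages make as an inactive precursor. It signals through the type 1 receptor, encoded by Il1r1, and the receptor antagonist, encoded by Il1rn, occupies that receptor without signalling. In rodent islets the receptor is known to be abundant on beta cells, and interleukin-1 signalling turns on NF-kB target genes such as Il6 and several chemokines. Chemokines are small secreted or membrane-bound proteins that draw leukocytes: Ccl2 attracts monocytes, Ccl5 T cells and monocytes, Cxcl1 neutrophils, and Cxcl10 activated T cells, while Cxcl16 and Cx3cl1 are made as transmembrane proteins that proteases shed.

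Total counts per library ran from 4001908 to 13187959. The beta cell markers (Ins1, Ins2, Iapp and others) summed to 75646 to 228663 CPM (read counts scaled to a common library size with TMM factors) in PX and 84398 to 164215 CPM in sham, so the labelled tissue was present in every library. Summed macrophage markers were at 147 to 863 CPM in PX and 45.3 to 121 CPM in sham, with no overlap. Of 15 such markers 14 were in the table, 13 were tested and all 13 rose, while Marco had 3 reads in PX and 0 in sham. The 10 mesenchymal markers tested also all rose, with sums of 717 to 2746 CPM in PX against 254 to 828 CPM in sham. Beside these counts, 13.8% of all genes tested were called higher in PX. A marker with few reads in sham could pass the filter on low counts through PX. Acinar markers took 5.54% to 43.9% of the counts in PX and 0.578% to 21.4% in sham, with the highest share in PX 65, whose TMM factor was 0.375. PX 58 and PX 62 had the highest macrophage sums, at 644 and 863 CPM against at most 433 CPM in the other 9 PX libraries. The part of these cells in the results below was not tested, and in bulk islet RNA more cells of a type cannot be told apart from more RNA per cell.

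**Figure D1:**
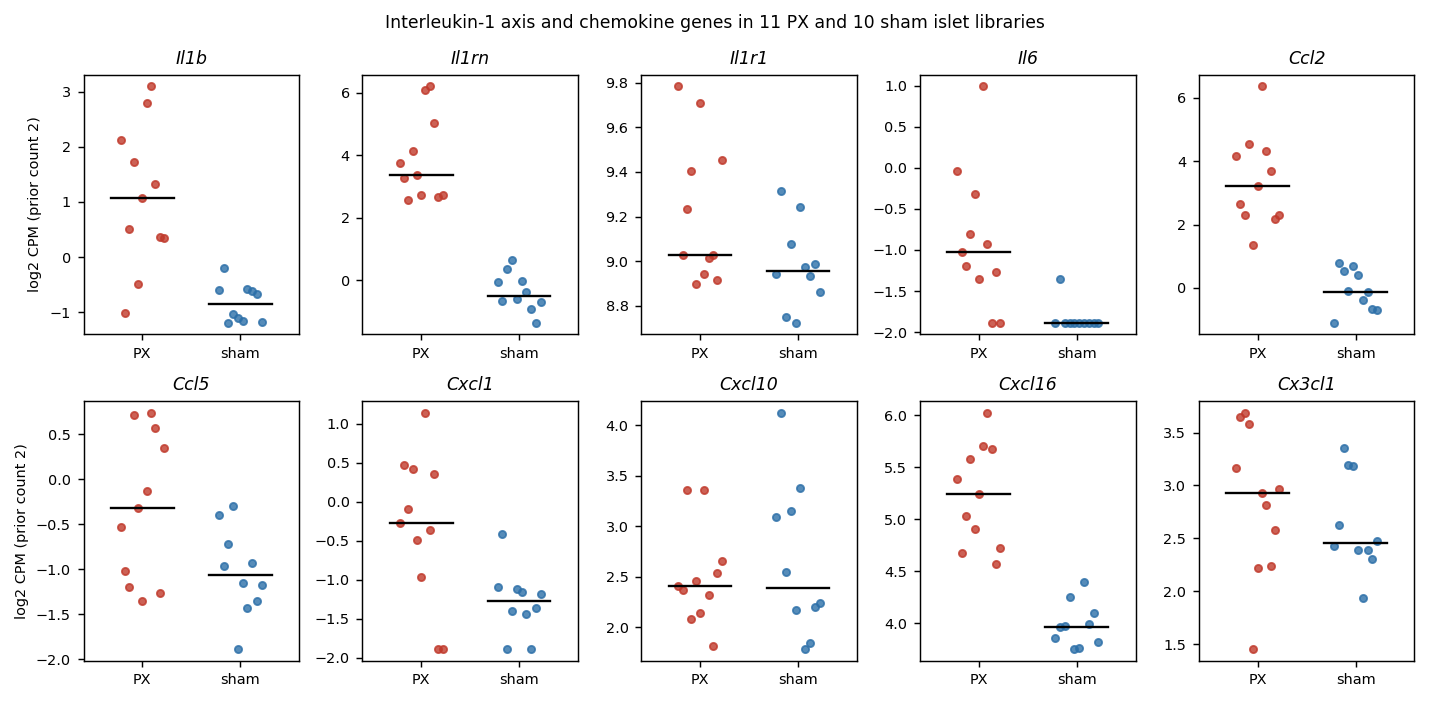
Level of each of the 10 genes as log2 CPM (prior count 2, own axis per panel), with 1 point per library for 11 PX libraries (left) and 10 sham libraries (right) and a line at the median. The points of Il1rn, Ccl2 and Cxcl16 in PX lie above every sham point, while those of Cxcl10 lie within the sham range.

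The receptor Il1r1 stood far above its ligands and all other genes of the set. Per kilobase of gene length, Il1r1 averaged 154 ± 36.6 CPM per kb in PX (SD, n = 11) and 129 ± 17.5 CPM per kb in sham (SD, n = 10). In PX the next genes were Cxcl16, Ccl2 and Il1rn at 22.99, 20.2 and 11.1 CPM per kb, and from Cxcl16 down to Cxcl10 no step between neighbours was larger than the spread between libraries. Cxcl10 at 5.03 CPM per kb lay above Cx3cl1 at 2.44 CPM per kb by more than their spread. From there Cx3cl1, Il1b at 1.95, Ccl5 at 1.21, Cxcl1 at 0.741 and Il6 at 0.362 CPM per kb formed a run of neighbours that did not differ beyond their spread. In sham the order was another one. Cxcl16 at 9.25 CPM per kb and Cxcl10 at 6.10 CPM per kb came after Il1r1, then Cx3cl1 at 1.99 CPM per kb, while Ccl2, Ccl5, Il1rn, Il1b and Cxcl1 all averaged between 0.925 and 0.167 CPM per kb. Il6 in sham was at 0.0116 CPM per kb, which is 1 read in all. Cxcl10 and Cx3cl1 thus stood above Ccl2 and Il1rn in sham, whereas in PX the mean levels of Ccl2 and Il1rn were above those of Cxcl10 and Cx3cl1, the step from Il1rn to Cxcl10 being within the spread.

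Setting PX against sham shows what differs in islets of the pancreas remnant 4 weeks after the operation. Of the 10 genes, 6 passed the filter on low counts, and of these Il1rn, Ccl2 and Cxcl16 rose in PX while Il1r1, Cxcl10 and Cx3cl1 were not called (edgeR quasi-likelihood test over 13126 genes, Benjamini-Hochberg adjusted p under 0.05). Over all genes tested 13.8% were called higher and 18.7% lower in PX, or 32.5% in either direction. The split between higher and lower calls depended on the scaling, with 42.4% of calls higher here, 57.1% with DESeq2 size factors and 30.5% with library totals only, and 62.5% without sham 73. Without sham 73 the reference library of the TMM factors also changed, from PX 44 to PX 58. Il1rn and Ccl2 had at most 12 reads in any sham library and passed the filter through PX, so the count among the 6 is a description. In the same 3 genes every PX library lay above every sham library, which held for 1.59% of all genes tested and for 1.24% of all genes with any count.

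Il1rn, the receptor antagonist, was at 5.64, 10.1 and 73.9 CPM in the lowest, median and highest PX library, against 0.120, 0.439 and 1.31 CPM in sham. The highest sham library, sham 46, had 12 reads and the lowest PX library, PX 38, had 34 reads, so the groups did not overlap. The fitted rise was 38.8-fold, a log2 fold change of 5.28 ± 0.64 (SE; edgeR, Benjamini-Hochberg adjusted p = 4.6e-06). PX 58 and PX 62, at 68.7 and 73.9 CPM, stood apart from the other 9 PX libraries, which reached 32.9 CPM at most. Without both, a choice made after seeing the data, the log2 fold change was 4.33 ± 0.40 (edgeR, adjusted p = 1.5e-07).

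Il1b, the agonist, did not pass the filter, because most libraries had few reads. It had 1 to 65 reads per library in PX and 1 to 5 in sham, which is 0.222, 1.83 and 8.28 CPM at the lowest, median and highest in PX, against 0.168, 0.289 and 0.604 CPM in sham. In 9 of the 11 PX libraries the level was above every sham library, and PX 37 with 1 read and PX 44 with 5 reads lay within the sham range. In the fit without a filter, over 20977 genes of which 12.9% were called higher in PX, Il1b had a log2 fold change of 3.05 ± 0.51 (edgeR, adjusted p = 8.8e-05), and of 2.33 without PX 58 and PX 62 (edgeR, adjusted p = 3.9e-04).

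Reads of the antagonist outnumbered those of the agonist in every PX library. The ratio of Il1rn to Il1b reads was 3.24, 6.33 and 42 at the lowest, median and highest in PX, and 0.333, 1.88 and 6 in sham. In sham 3 of 10 libraries had fewer Il1rn than Il1b reads. Pooled over libraries there were 1911 Il1rn and 228 Il1b reads in PX, a ratio of 8.38, against 44 and 25 reads in sham, a ratio of 1.76. Corrected for gene length, the median ratio per library was 4.33 in PX and 1.28 in sham. The sham ratios rest on 1 to 12 Il1rn and 1 to 5 Il1b reads per library and overlap the PX ratios, so they are given without a test.

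Il1r1, which encodes the signalling receptor, had 476, 522 and 881 CPM at the lowest, median and highest in PX, against 423, 497 and 637 CPM in sham. The groups overlapped, with 4 of 11 PX libraries above every sham library. The log2 fold change of 0.26 ± 0.12 was not called (edgeR, adjusted p = 0.0986). This call depended on the scaling: with DESeq2 size factors the value was 0.34 (edgeR, adjusted p = 0.0310), with library totals only 0.084 (adjusted p = 0.756), and in DESeq2 itself 0.34 (adjusted p = 0.0180). Leaving out PX 44 or PX 65 also brought it past the threshold, at 0.38 and 0.34 (edgeR, adjusted p = 0.0193 and 0.0419). In these fits the TMM reference library changed as well, to PX 58 and sham 50. It also changed without sham 73, where Il1r1 was at 0.34 and not called (edgeR, adjusted p = 0.0560). In PX the highest levels of Il1r1 were in PX 36 and PX 57, not in PX 58 and PX 62, where it was at 492 and 518 CPM.

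Il6, a cytokine of NF-kB target genes, was near the limit of detection. It had 35 reads over 9 of the 11 PX libraries and 1 read over the 10 sham libraries, in sham 22. The 9 sham libraries with no read allow up to 0.295 to 0.575 CPM, the level that 3 reads give over the sham libraries. The ratio of pooled levels was 34.03, with an exact 95% counting interval of 5.72 to 1382 that covers counting error only. PX 58 alone held 16 of the 35 reads. Without a filter the log2 fold change was 3.82 ± 0.77 (edgeR, adjusted p = 5.8e-04), and 3.19 without PX 58 (edgeR, adjusted p = 0.00147).

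Among the secreted chemokines, Ccl2 rose in PX. The monocyte chemokine was at 2.29, 9.03 and 81.9 CPM at the lowest, median and highest in PX, against 0.197, 0.647 and 1.45 CPM in sham, with no overlap between the groups. Its log2 fold change was 4.50 ± 0.65, or 22.6-fold (edgeR, adjusted p = 2.9e-05). PX 58, at 81.9 CPM, lay well above the next library, PX 41 at 23.1 CPM. The log2 fold change was 3.78 without PX 58 and 3.63 without PX 58 and PX 62 (edgeR, adjusted p = 4.3e-06 for the last).

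Cxcl1, a neutrophil chemokine, and Ccl5 did not pass the filter. Cxcl1 had 54 reads in PX, from 0 to 18 per library, and 12 reads in sham, from 0 to 4 per library. Its levels overlapped, with 7 of 11 PX libraries above every sham library, and the fit without a filter gave a log2 fold change of 2.02 ± 0.58 (edgeR, adjusted p = 0.0116), and 1.69 without PX 58 (edgeR, adjusted p = 0.0352). Ccl5 had 51 reads in PX, 1 to 11 per library, against 20 reads in sham, 0 to 5 per library. Its log2 fold change of 1.31 ± 0.49 lay at the threshold in the fit without a filter (edgeR, adjusted p = 0.0499). The call ended in 13 of the 21 fits that left out 1 library, namely PX 41, PX 58, PX 62, PX 65, PX 70 and every sham library but sham 21 and sham 46 (edgeR, adjusted p = 0.0595 to 0.109).

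Cxcl10, an interferon-induced chemokine that binds Cxcr3, did not share this pattern. It was at 3.23, 5.04 and 10.01 CPM at the lowest, median and highest in PX, against 3.17, 4.997 and 17.2 CPM in sham. All 11 PX libraries lay within the sham range, and the highest library of the whole set was sham 22. The log2 fold change was -0.28 ± 0.28 (edgeR, adjusted p = 0.462), and it stayed between -0.46 and -0.015 in the 30 alternative fits, none of which called it.

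The transmembrane chemokines differed from each other. Cxcl16, a chemokine of macrophages and other cells that also binds oxidized lipoprotein, was at 23.5, 37.7 and 64.9 CPM at the lowest, median and highest in PX, against 13.2, 15.4 and 20.8 CPM in sham, with no overlap. It had the smallest spread of the called genes, with a coefficient of variation of 33.98% in PX and 15.6% in sham, against 111% in PX and 64.7% in sham for Il1rn. Its log2 fold change was 1.31 ± 0.16, or 2.48-fold (edgeR, adjusted p = 3.4e-06). Cx3cl1, also called fractalkine, was at 2.47, 7.32 and 12.6 CPM at the lowest, median and highest in PX, against 3.57, 5.21 and 9.93 CPM in sham. It overlapped, with 3 PX libraries above and 1 below the sham range, and had a log2 fold change of 0.29 ± 0.25 (edgeR, adjusted p = 0.383). The authors' deposited table lists the same 6 genes that passed the filter here, with log2 fold changes of 4.78 for Il1rn, 3.91 for Ccl2, 1.27 for Cxcl16, 0.27 for Il1r1, 0.21 for Cx3cl1 and -0.11 for Cxcl10.

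**Figure D2:**
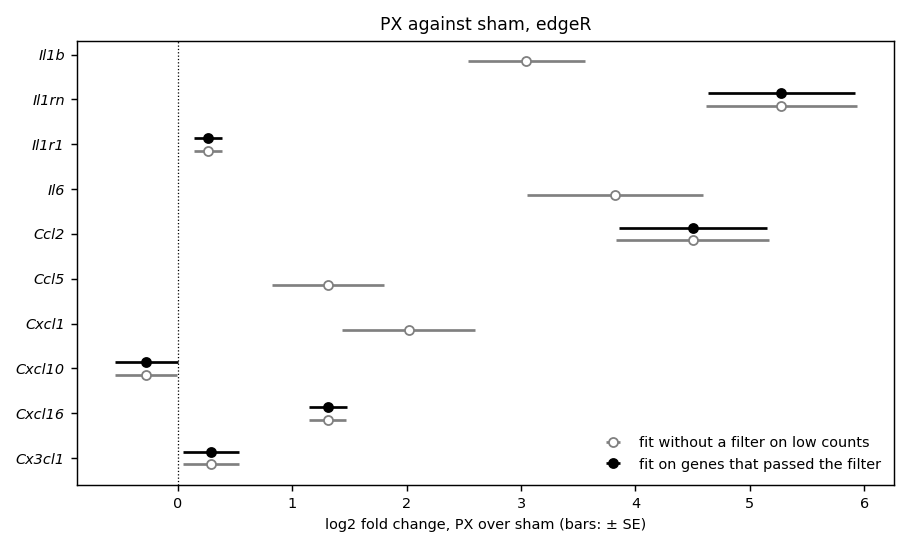
Log2 fold change of PX over sham for the 10 genes with bars of ± SE, from the fit on genes that passed the filter (filled, 6 genes) and from the fit without a filter (open, 10 genes). Il1rn at 5.28 and Ccl2 at 4.50 lie farthest right, and Cxcl10 at -0.28 is the only gene left of 0.

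Promoter sequence is shown for genes on either side of this difference, since NF-kB and interferon signalling are known to act on several of these genes. Windows of the 250 bases before the gene start came from RefSeq, build GRCr8, for 8 of the 10 genes, all but Ccl2 and Ccl5. The window of Il1rn lies inside the span that RefSeq gives the gene. Both strands were searched for the kappaB consensus, the interferon-stimulated response element core, the activator protein 1 site TGANTCA and the TATA box TATAAA, and matches are in capitals. Each is written 5′ to 3′ on the strand of the gene.
Il1rn, chr3:27520072-27520321, plus strand: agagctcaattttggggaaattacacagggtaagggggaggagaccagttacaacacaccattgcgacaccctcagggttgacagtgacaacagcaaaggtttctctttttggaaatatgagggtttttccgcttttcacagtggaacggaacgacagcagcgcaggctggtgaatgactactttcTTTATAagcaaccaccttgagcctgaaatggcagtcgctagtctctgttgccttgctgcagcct
Cxcl16, chr10:55669951-55670200, minus strand: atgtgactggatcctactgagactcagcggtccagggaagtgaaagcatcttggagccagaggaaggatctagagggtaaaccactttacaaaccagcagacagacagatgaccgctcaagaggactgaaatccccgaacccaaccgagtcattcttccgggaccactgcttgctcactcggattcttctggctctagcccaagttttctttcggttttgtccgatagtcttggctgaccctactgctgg
Cxcl10, chr14:15988816-15989065, plus strand: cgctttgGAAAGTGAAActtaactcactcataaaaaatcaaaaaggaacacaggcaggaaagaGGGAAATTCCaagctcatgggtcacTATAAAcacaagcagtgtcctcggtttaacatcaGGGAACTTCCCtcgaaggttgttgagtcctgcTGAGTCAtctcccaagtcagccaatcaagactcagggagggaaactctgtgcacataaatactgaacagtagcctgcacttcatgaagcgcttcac
Cxcl1, chr14:17479322-17479571, minus strand: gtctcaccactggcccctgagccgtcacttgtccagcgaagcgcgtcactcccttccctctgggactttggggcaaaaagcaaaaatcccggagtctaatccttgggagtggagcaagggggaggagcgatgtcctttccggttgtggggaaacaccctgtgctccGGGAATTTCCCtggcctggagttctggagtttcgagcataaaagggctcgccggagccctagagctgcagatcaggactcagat
Il6, chr4:5894576-5894825, minus strand: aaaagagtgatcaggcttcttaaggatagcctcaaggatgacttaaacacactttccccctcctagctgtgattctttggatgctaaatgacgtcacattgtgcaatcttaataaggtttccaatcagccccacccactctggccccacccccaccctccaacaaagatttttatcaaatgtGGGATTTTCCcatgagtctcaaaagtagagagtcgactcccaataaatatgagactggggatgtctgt
Cxcl10, which was not called, held the most matches: the response element core starting 243 bases before the gene start, kappaB matches starting 187 and 128 bases before it, the second with an overlapping match on the other strand, an activator protein 1 site at 96 bases, which matches on both strands, and TATAAA at 162 bases. Cxcl1 held a kappaB match at 84 bases, also overlapped by one on the other strand, and Il6 at 68 bases. The Il1rn window held a TATA box on the other strand at 64 bases and no match to the other motifs, and the Cxcl16 window held none of these letters. Of all 33469 RefSeq windows of this length, 6.33% held the kappaB consensus, 3.41% the response element core, 6.34% the activator protein 1 site and 12.9% TATAAA. Among the 8 genes with a window, 4 held the kappaB consensus, the fourth being Il1r1. A match describes the letters alone.

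Within PX the genes were unequal in which library was highest. PX 58 was highest for 4 of the 10 genes, namely Ccl2, Cxcl1, Cxcl10 and Il6, and PX 62 for 4 others, namely Il1b, Il1rn, Cxcl16 and Ccl5. Il1r1 was highest in PX 36 and Cx3cl1 in PX 38. The summed CPM of 8 granulocyte markers was 64.3 in PX 58 and 65.6 in PX 62, against 3.65 to 19.6 in the other 9 PX libraries and 0.171 to 4.11 in sham. Most of it was Mmp9, at 15.7 ± 21.8 CPM in PX (SD, n = 11) and 0.0701 CPM on average in sham. Of the others, S100a9 had 137 reads in PX and 39 in sham, Csf3r 100 and 22, and Cxcr2 74 and 7. Mmp8 had 18 and 2, S100a8 16 and 7, Elane 4 and 3, and Mpo 1 and 0. In the fit without a filter 5 of the 8 were called higher, beside 12.9% of all genes. The mean log2 CPM of the 8 markers was 0.25 in PX 58 and 0.61 in PX 62, against -0.80 to 0.16 in the other 9. That mean includes Mmp9, which was highest in PX 58, at 59.3 CPM. S100a9, Csf3r and S100a8 were highest in PX 36, at 6.31, 2.10 and 0.701 CPM, and Cxcr2 in PX 62, at 2.68 CPM. The markers without Mmp9 were not summed. Lymphocyte markers summed to 45.1 CPM in PX 58 and 83.2 CPM in PX 62, against 15.9 to 43.9 CPM in the other 9, and were mostly Cd4, at 23.6 CPM on average in PX and 9.57 CPM in sham. As a mean log2 CPM of these markers, PX 58 at 0.44 lay within the other 9, at -0.55 to 1.34. The part of these cells was not tested.

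Ccl2, Cxcl16 and Il1rn varied with the macrophage score over the PX libraries, a relation added after the data were seen, where the score is the mean log2 CPM of the macrophage markers. For Cxcl16, Pearson's r was 0.92 and Spearman's rho 0.91 (permutation tests over 11 libraries, p = 8e-05 and p = 2.5e-04), and r was 0.85 without PX 58 and PX 62, the farthest from the median score (permutation test, p = 0.00453). For Ccl2, r was 0.87 and rho 0.88 (permutation tests, p = 4.3e-04 and p = 7e-04), and r was 0.93 without these libraries (permutation test, p = 4.8e-04). For Il1rn, r was 0.89 and rho 0.70 (permutation tests, p = 4.8e-04 and p = 0.0204), and r was 0.70 without them (permutation test, p = 0.0351). Il1r1, Cxcl10 and Cx3cl1 had r of -0.065, -0.036 and 0.20 with the same score and rho of 0.091, -0.27 and 0.045 (permutation tests, p of r = 0.848, 0.917 and 0.558, p of rho = 0.794, 0.415 and 0.903), and r of 0.37, -0.50 and 0.30 without PX 58 and PX 62. With the mesenchymal score, r was 0.84 for Ccl2, 0.74 for Il1rn and 0.72 for Cxcl16 and rho 0.86, 0.75 and 0.67 (permutation tests, p of r = 0.00107, 0.00953 and 0.0143, p of rho = 0.00115, 0.00975 and 0.0279). Without PX 41 and PX 62, the farthest from the median of that score, r was 0.87, 0.71 and 0.57, the last no longer past the threshold (permutation test, p = 0.112). For Il1r1, Cxcl10 and Cx3cl1, r with the mesenchymal score was 0.066, -0.055 and 0.48 and rho 0.15, -0.24 and 0.35 (permutation tests, p of r = 0.844, 0.868 and 0.133, p of rho = 0.673, 0.485 and 0.299), and r was 0.10, 0.22 and 0.45 without PX 41 and PX 62. These are 6 relations for each score, with unadjusted p, and none of the 10 genes is a member of either score.

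**Figure D3:**
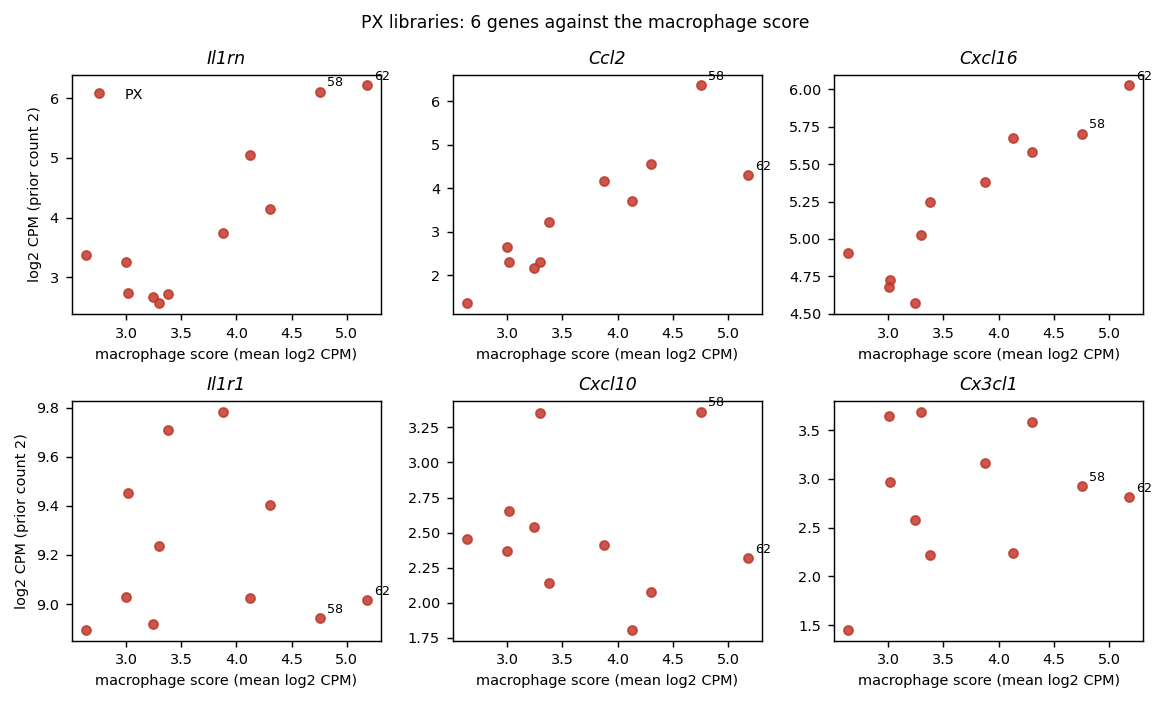
Level (log2 CPM, prior count 2) of the 6 genes that passed the filter against the macrophage score (mean log2 CPM of the macrophage markers) in the 11 PX libraries, with 1 point per library and PX 58 and PX 62 marked. The points rise from left to right for Il1rn (r = 0.89), Ccl2 (r = 0.87) and Cxcl16 (r = 0.92) and scatter for Il1r1, Cxcl10 and Cx3cl1.

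Among 8735 or 8736 genes of at least 10 mean CPM, those most like each gene over the 11 PX libraries were named by Pearson's r of log2 CPM, as a description without a test. Il1rn was closest to Ctsk, a lysosomal protease, Cybb, the catalytic subunit of the phagocyte oxidase, and Itgax, an integrin of myeloid cells, with r of 0.99, 0.98 and 0.98. Ccl2 was closest to the related monocyte chemokine Ccl7 (r = 0.98), the protease gene Plau (r = 0.97) and the proteoglycan gene Vcan (r = 0.94). Cxcl16 was closest to the complement gene C1qc (r = 0.97), the cytokine gene Il33 (r = 0.96) and Cd74, the class II invariant chain (r = 0.94). Il1r1 was closest to Tnni3k, Ncoa7 and Micb (r = 0.92, 0.90 and 0.87), Cxcl10 to Rin2, Stmn2 and Tubb4a (r = 0.84, 0.82 and 0.78), and Cx3cl1 to Dtx2, Fhod1 and Col13a1 (r = 0.95, 0.94 and 0.94). Cybb and C1qc are also members of the macrophage score.

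The titles also give BG for each animal, without a unit, at 101 to 174 in PX and 82 to 104 in sham. None of the 6 genes that passed the filter within PX had a called slope on BG. Over all genes 0 of 11584 were called by edgeR in either direction (0% of those tested), 1545 had an unadjusted p under 0.05, limma voom called 0 and DESeq2 called 23, none of them among the 10 genes. Il1rn, Ccl2 and Cx3cl1 had slopes of -0.0076 ± 0.18, 0.017 ± 0.21 and 0.0046 ± 0.094 on the log2 scale per 10 units of BG (edgeR, adjusted p = 0.989, 0.980 and 0.988). Cxcl16 had a slope of 0.076 ± 0.058 and Il1r1 of 0.035 ± 0.046 (edgeR, adjusted p = 0.555 and 0.752). PX 58 and PX 62, with the highest Il1rn levels, had BG of 114 and 110, and PX 65, with the highest BG, had 32.9 CPM of Il1rn. Without PX 58 and PX 62, the slopes were 0.25 ± 0.062 for Il1rn, 0.32 ± 0.097 for Ccl2 and 0.14 ± 0.037 for Cxcl16, none of them called (edgeR, adjusted p = 0.0661, 0.102 and 0.0799), in a fit that called 122 of 11505 genes, or 1.06%. With library totals only, the slopes of all 6 genes were negative and not called, from -0.23 for Cxcl10 to -0.0058 for Cxcl16 (edgeR, adjusted p = 0.379 and 0.966). The median slope of all genes was -0.10 in that fit, against -0.012 in the main fit. The sign thus changed with the scaling for Il1r1, Ccl2, Cxcl16 and Cx3cl1, while Il1rn and Cxcl10 were negative in both fits. The uncalled slopes are not read as a direction.

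Cxcl10 had a slope of -0.14 ± 0.070 per 10 units within PX that was not called (edgeR, adjusted p = 0.404). Its r with BG was -0.57 and rho -0.58 (permutation tests over 11 libraries, p = 0.0562 and p = 0.0636), and r was -0.14 without PX 65 and PX 41, the animals farthest from the median BG (permutation test, p = 0.712). Il1r1 had r = 0.26 and rho = 0.53 (permutation tests, p = 0.455 and p = 0.101), and r was 0.73 without these animals (permutation test, p = 0.0157). The remaining r values were 0.19 for Il1rn, 0.32 for Ccl2, 0.47 for Cxcl16 and 0.0060 for Cx3cl1 (permutation tests, p = 0.606, 0.334, 0.150 and 0.987), and rho values were 0.24, 0.59, 0.55 and 0.16 (p = 0.478, 0.0590, 0.0818 and 0.627). Without the animals farthest from the median these r values were -0.17, 0.26, 0.25 and 0.099. Within sham, 4 of the genes passed the filter and none had a called slope (edgeR; 0% of 11625 genes called, 81 at an unadjusted p under 0.05, and 0 by DESeq2 and voom). The slopes of the groups, compared over all libraries in a fit added after the data were seen, gave no called difference for any of the 6 genes (edgeR interaction, adjusted p = 0.9999 for each; 0% of 13126 genes called, 139 at an unadjusted p under 0.05). With the 8 PX animals of BG 121 or less, Il1rn, Ccl2 and Cxcl16 were called against sham, with log2 fold changes of 5.45, 4.65 and 1.29 (edgeR, adjusted p = 2.9e-05, 2.0e-04 and 4.2e-05). BG ran from 101 to 121 in these PX animals and from 82 to 104 in sham. It thus still differed between the groups, and its part was not tested.

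**Figure D4:**
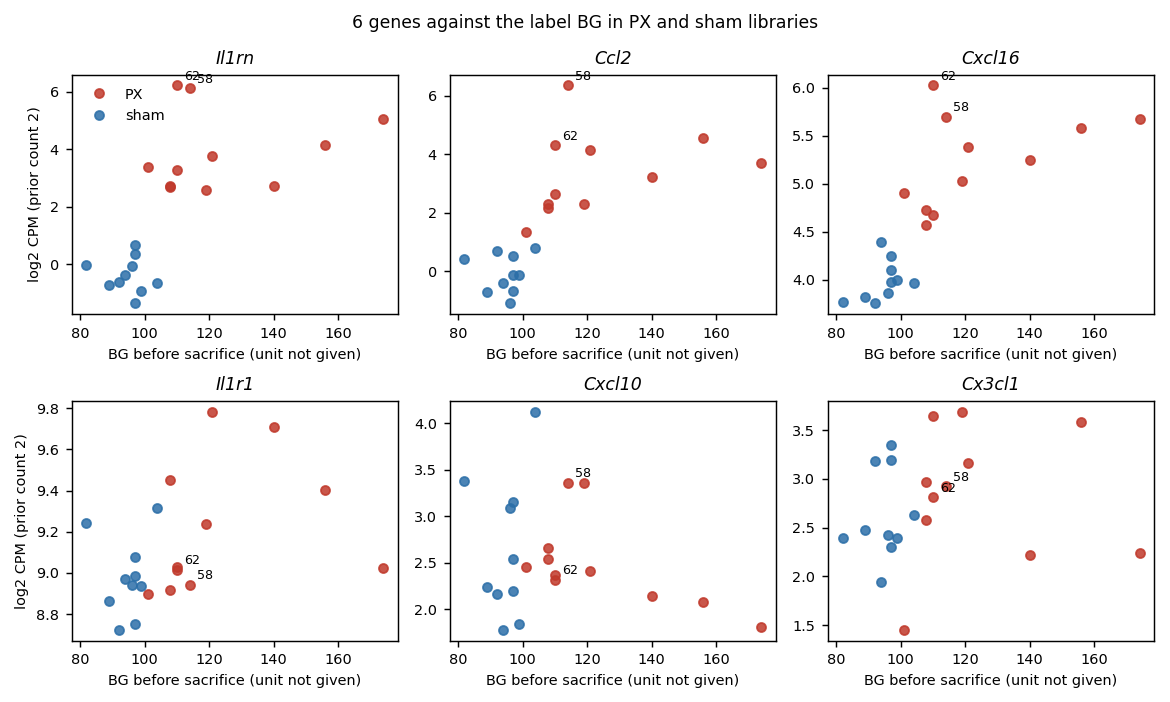
Level (log2 CPM, prior count 2) of 6 genes against BG of the title (unit not given) in 11 PX and 10 sham libraries, with 1 point per library and PX 58 and PX 62 marked. Within PX, Il1rn is highest at BG of 110 and 114, and Cxcl10 is lowest at the highest BG, 174.

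The wider pathway was described by 8 further lists of 130 genes, in which a gene low in sham could pass the filter through PX. In the list of interleukin-1 ligands and the inflammasome, the complex that activates interleukin-1 beta, 7 of the 10 genes tested rose and 3 were not called, beside 13.8% of all genes called higher, with a median log2 fold change of 1.07 against -0.073 over all genes. Il33, an alarmin of the family, rose 22.2-fold, with 59.7 ± 43.6 CPM in PX (SD, n = 11) against 2.69 ± 1.02 CPM in sham (SD, n = 10; edgeR, adjusted p = 3.0e-07). The sensor Nlrp3 rose by 2.39 ± 0.35 and the protease Casp1, which cleaves the precursor, by 1.76 ± 0.22 on the log2 scale (edgeR, adjusted p = 2.2e-05 and 2.8e-06), and Nlrp1a rose by 0.99 ± 0.15 (adjusted p = 4.2e-05). In the list of receptors and signalling 3 of 14 rose and 11 were not called, with a median of 0.01, where 13.8% of all genes tested were called higher. The adaptor Myd88 rose by 0.62 ± 0.12, Irak3, an inhibitory kinase of the pathway, by 1.51 ± 0.34 and Irak4 by 0.51 ± 0.16 (edgeR, adjusted p = 2.9e-04, 0.00174 and 0.0160), while Tollip was at -0.29 ± 0.12 and not called (adjusted p = 0.0708). Of 13 NF-kB subunits and feedback genes 5 rose, against the same 13.8% of all genes, with a median of 0.47, among them Nfkbiz by 0.71 ± 0.19, Tnip1 by 0.47 ± 0.13, Zc3h12a by 0.67 ± 0.21 and Bcl3 by 1.18 ± 0.38 (edgeR, adjusted p = 0.00527, 0.00753, 0.0164 and 0.0179).

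In the list of the interleukin-6 family and its signalling 3 of 8 genes rose and 1 fell, beside 13.8% of all genes called higher and 18.7% lower. The oncostatin M receptor Osmr rose 4.14-fold and the feedback inhibitor Socs3 3.54-fold, Stat3 rose by 0.39 ± 0.13, and the receptor Il6r fell by 0.51 ± 0.11 on the log2 scale (edgeR, adjusted p = 7.5e-06, 3.3e-05, 0.0216 and 7.1e-04). Of 4 other cytokines that passed the filter 1 rose, beside 13.8% of all genes called higher. It was the macrophage growth factor Csf1, which rose by 1.70 ± 0.27 (edgeR, adjusted p = 6.6e-05). Il15, Tgfb1 and Tnfsf10 had log2 fold changes of 0.23, 0.59 and -0.28 and were not called (edgeR, adjusted p = 0.522, 0.159 and 0.0569). Tnf, often named beside interleukin-1 beta, had 7 reads in PX and 1 in sham.

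Of 29 other chemokine ligands 5 passed the filter and 4 of these rose, beside 13.8% of all genes called higher. Ccl7, a neighbour of Ccl2 in the monocyte chemokine group, rose 11.4-fold, with 17.95 ± 19.2 CPM in PX (SD, n = 11) against 1.54 ± 0.567 CPM in sham (SD, n = 10; edgeR, adjusted p = 2.9e-05). Ccl6 rose by 2.39 ± 0.47, Ccl19 by 0.99 ± 0.32 and Cxcl12, a chemokine of stromal cells, by 0.90 ± 0.17 on the log2 scale (edgeR, adjusted p = 5.0e-04, 0.0184 and 3.5e-04). Of 6 chemokine receptors tested 5 rose, beside the same 13.8%. Among them Cx3cr1, the receptor of Cx3cl1, rose 5.17-fold and Ccr1 12.7-fold (edgeR, adjusted p = 2.6e-07 and 7.0e-05), and Cxcr4, the receptor of Cxcl12, rose 2.43-fold (adjusted p = 1.2e-04). Cx3cr1 thus rose while its ligand was not called. Of 4 listed proteases that shed membrane proteins 3 were called higher, beside 13.8% of all genes. Adam9 rose by 0.65 ± 0.12, Adam17 by 0.38 ± 0.11 and Adam8 by 0.68 ± 0.25 (edgeR, adjusted p = 2.2e-04, 0.00791 and 0.0380), while Adam10 was at -0.0022 ± 0.11 (adjusted p = 0.990). Which of them act on Cxcl16 or Cx3cl1 was not tested.

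**Figure D5:**
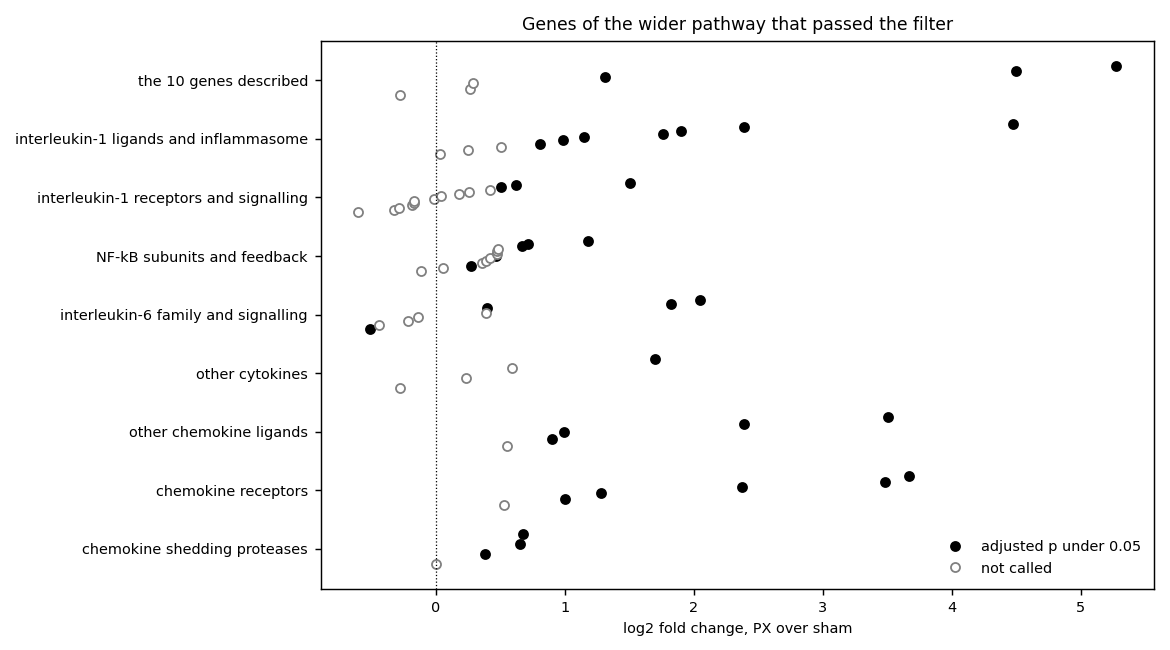
Log2 fold change of PX over sham for each gene that passed the filter in the 10 genes described and in 8 lists of the wider pathway, with 1 point per gene, filled where the edgeR adjusted p was under 0.05. Il1rn at 5.28, Ccl2 at 4.50 and Il33 at 4.47 lie farthest right, and Il6r at -0.51 is the only filled point left of 0.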

How the data were processed

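RNA of 21 islet libraries (11 PX, 10 sham) was sequenced, and groups, animal numbers and BG come from the sample titles. The tools named per the submitters' processing notes are limma, featureCounts, Subread and FastQC. Their versions, the strand setting, the genome build and the annotation were not given in the sources used here. Whole reads per gene name are what the authors deposited as counts, with no normalization, and the same file gives a gene length in base pairs. The authors' deposited table gives log2 fold changes, the fold change as a linear ratio, mean log2 expression and p-values per gene, per the file headers.

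TMM factors were computed over all genes in edgeR 4.0.16 (R 4.3.3). After filterByExpr, with a minimum count of 10 and a minimum total of 15, robust quasi-likelihood models of group, or of BG per 10 units, were fitted. Tests were two-sided, with Benjamini-Hochberg adjustment at 0.05 over all genes tested. Standard errors were derived from the F statistic and the fitted change. Log2 CPM used a prior count of 2. Correlations used permutation tests of 100000 resamples (scipy 1.17.1). Without a filter, all genes with a count were tested. DESeq2 1.42.0 and voom of limma 3.58.1 were alternatives. The fits were tested on simulated data. Of slopes of 0.1, 0.25 and 0.5 per 10 units of BG within PX, 0%, 61.5% and 72.1% were recovered. These shares are averages over randomly chosen genes, and recovery was not worked out for the 10 genes. Il1rn and Ccl2 had standard errors of 0.18 and 0.21 for this slope, so slopes of these sizes could be missed in them. Uncalled slopes of such sizes are therefore not informative. Of log2 group differences of 0.5, 1 and 2, 26.6%, 75.4% and 100% were recovered.

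The 10 genes and all lists were chosen with earlier results of these data known. Named genes were the 10, up to 4 genes of each further list by smallest p, and the 3 genes most like each gene over PX. One gene that this rule names is not reported here. No pair of libraries within a group agreed within counting noise, the lowest chi-square per degree of freedom being 4.37, for sham 73 and sham 74. Beyond the animal number, no label states that libraries came from separate animals, so a p-value covers only the variation among these libraries, which may be technical. The labels give no batch. Counting intervals and the limit of 3 reads cover counting error only. Reads of overlapping genes may not be told apart without the strand setting.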

Additional observations from a re-analysis of the deposited data

Results flagged for a closer look

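Sham 22 stood apart from the other sham libraries in 2 genes by the gap to the nearest library relative to the range of the group. Il6 was at a log2 CPM of -1.35 there, from 1 read, while the other 9 sham libraries had none, so that its gap equals the range by construction. Cxcl1 was at a log2 CPM of -0.41 in sham 22, from 4 reads. Both rest on very few reads. The rule is set so that chance marks about 1 in 20 groups of normally distributed values, a rate not checked for such low counts. Sham 22 was also the highest sham library for 6 of the 10 genes, which besides these 2 were Il1b, Il1r1, Ccl2 and Cxcl10, and its BG of 104 was the highest of the sham animals.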

How the results depend on the processing

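In all 30 alternative fits of PX against sham, Il1rn, Ccl2 and Cxcl16 were called higher, with log2 fold changes of 4.33 to 5.53, 3.63 to 4.73 and 1.09 to 1.43, and Cxcl10 and Cx3cl1 were not called. Called genes in all numbered 4264, 2487 with the acinar score as a covariate, 2618 when PX was limited to its 8 animals with BG up to 121, and 3174 to 4946 with 1 library left out. Without a filter 7 of the 10 genes were called higher, beside 12.9% of all 20977 genes, against 3 with it. DESeq2 called 4. Library totals only moved the median log2 fold change of all genes to -0.28. For the BG slope within PX, called genes numbered 6 without a filter, 23 by DESeq2, 0 to 1 with 1 library left out (1 without PX 41) and 122 without PX 58 and PX 62, against 0. The r of Il1r1 with BG was 0.73 and that of Cxcl16 with the mesenchymal score 0.57 without the 2 libraries farthest from the median. The cause of these changes was not tested. No paired analysis was possible because no animal number occurs in both groups. Depth limits Il1b, Il6, Ccl5 and Cxcl1, which had at most 5 reads in any sham library.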

Other observations

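Chemokine ligands too low for the filter were counted as reads, chosen after their values were seen. Some of the 29 other ligands had reads in PX and none in any sham library. The share of all genes with this pattern was not counted. The largest of these ligands were Ccl22, a ligand of Ccr4, with 99 reads in PX, Ccl17, another ligand of Ccr4, with 74, and Cxcl13, a B cell chemokine, with 68. Against a limit of 3 reads over the sham group, Ccl22 was at least 32.1-fold, Ccl17 at least 23.98-fold and Cxcl13 at least 22.04-fold higher in PX. PX 58 alone held 57 of the Ccl22 and 43 of the Ccl17 reads, and without it these limits were at least 15.4-fold and at least 11.4-fold. The receptor Ccr4 had 75 reads in PX and 1 in sham, a ratio of 72.9 with an exact 95% counting interval of 12.7 to 2918, and 47.5 without PX 62, which held 31 of the reads (8.10 to 1919). Cxcl2, a neutrophil chemokine, had 91 reads in PX and 3 in sham, a ratio of 29.5 (9.78 to 146). Ccl9 had 904 reads in PX and 6 in sham.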
